A study of Drosophila melanogaster with 3 samples.

Results

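The genes of the vacuolar ATPase (V-ATPase) were examined for binding of Hr4 in white prepupae of Drosophila melanogaster. Members were all protein-coding genes on the main chromosome arms whose symbol starts with Vha followed by a digit or by the letter A, which gave 26 of 13945 genes. A gene was counted as bound when a peak summit of the reproducible list lay within 1 kb of any of its annotated start sites. The animals belonged to a transgenic line that stably expresses Hr4 fused to GFP at its C-terminus, and an anti-GFP antibody was used for chromatin immunoprecipitation and sequencing (ChIP-seq). Males and females were pooled, whole white prepupae were used, and the age label reads 48 days. All 3 biological replicates came from this 1 line and formed 1 group, so no conditions were compared and no test between samples exists. Chromatin was sonicated to 200 to 800 bp. In whole animals a summit cannot be assigned to a tissue, and a site used in few cells cannot be told apart from one used weakly in many.

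The V-ATPase is a rotary proton pump. Its peripheral V1 sector hydrolyses ATP through a ring of alternating A and B subunits, with C, D, E, F, G and H forming the stalks and their links, and its membrane-embedded V0 sector, made of a, c, c″, d and e, carries the protons. The pump acidifies endosomes and lysosomes, takes part in activation of TOR kinase at the lysosome, and energises the apical membranes of insect epithelia such as the Malpighian tubule. In Drosophila the transcription factor Mitf, which binds the E-box CACGTG, is known to act on V-ATPase genes. Hr4 belongs to the nuclear receptors without a known ligand that act downstream of ecdysone at the onset of metamorphosis.

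Sequence at the summits is shown for 4 bound genes, each at the highest-ranked summit outside untranslated sequence, because these windows lie under the binding described here and differ in base composition. The summits of the highest ranks, at Vha100-2 and Vha14-1, are not among them. Each runs 5′ to 3′ on the strand of the V-ATPase gene, the minus strand in all 4, in build dm6, and capitals mark the 11 bases centred on the summit. The windows are chr3R:18399327-18399427 for the second summit of Vha100-2, chr2L:13004174-13004274 for Vha68-1, chr2L:10737274-10737344 for Vha16-5 and chr3R:19644458-19644558 for Vha13. Those of Vha100-2, Vha68-1 and Vha13 span 101 bp, and the window of Vha16-5 was shortened to 71 bp where transcribed untranslated sequence begins.
Vha100-2: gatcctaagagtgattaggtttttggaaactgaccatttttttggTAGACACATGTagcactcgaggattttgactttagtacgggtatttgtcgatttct
Vha68-1: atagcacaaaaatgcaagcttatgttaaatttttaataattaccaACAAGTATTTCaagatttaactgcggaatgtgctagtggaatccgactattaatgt
Vha16-5: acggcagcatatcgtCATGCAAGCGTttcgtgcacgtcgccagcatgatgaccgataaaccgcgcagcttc
Vha13: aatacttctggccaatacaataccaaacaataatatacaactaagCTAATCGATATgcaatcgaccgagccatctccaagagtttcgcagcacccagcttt
Of the 9 motifs searched on both strands with exact matches, the Vha100-2 window held the variant E-box CATGTG, read there on the opposite strand as CACATG inside the capitals. The windows of Vha68-1, Vha16-5 and Vha13 held none of the 9. The Vha16-5 window was the richest in G and C.

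The deposited peak lists set the scale of every value below. The reproducible list, called optimal by the authors and in the figures and made by irreproducible discovery rate (IDR) analysis of all replicates, held 8693 peaks, of which 8687 lay on the 6 arms. A relaxed list of 30000 entries, which mixes peaks with background, was deposited for every replicate, and 1 more for the reads of all replicates pooled. The signal value of a peak is the authors', and it was ranked only within its own list, with rank 1 the highest. A percentile places an entry within its list, with 100 the highest. Depth is unknown because the lists carry no read counts. Replicate 1 stood apart on the X chromosome, where it held 3262 entries, against 5753 in replicate 2 and 6069 in replicate 3. It had an entry within 250 bp of 82.5% of the reproducible X summits, compared with 93.8% on the large autosomal arms. The 2 members on X, Vha36-3 and VhaAC39-1, were not bound, and all bound members lay on autosomes.

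Hr4 was bound at 5 of the 26 V-ATPase genes. These encode the catalytic subunit A (Vha68-1), the stalk subunits F (Vha14-1) and G (Vha13), the proton-path subunit a (Vha100-2) and the rotor subunit c (Vha16-5). The share was 19.2% of V-ATPase genes, and 22.7% of all protein-coding genes (3164 genes) were bound by the same rule, so the family's share was near the background. By sector, 3 of 12 V1 genes, 2 of 12 V0 genes and 0 of 2 accessory genes were bound. No bound gene encoded subunit B (Vha55), C (Vha44), D (Vha36-1, Vha36-2, Vha36-3), E (Vha26) or d (VhaAC39-1, VhaAC39-2), nor the accessory protein AC45 (VhaAC45, VhaAC45RP). Among the members, each subunit with several gene copies and a bound gene had 1 bound copy, which was the case for A, F, a and c. With only 5 of 26 members bound and no share for other gene families beside it, this describes the members only. Subunit e, whose genes fall outside the symbol rule, had 2 bound copies, VhaM9.7-a and VhaM9.7-b, described below.

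**Figure D1:**
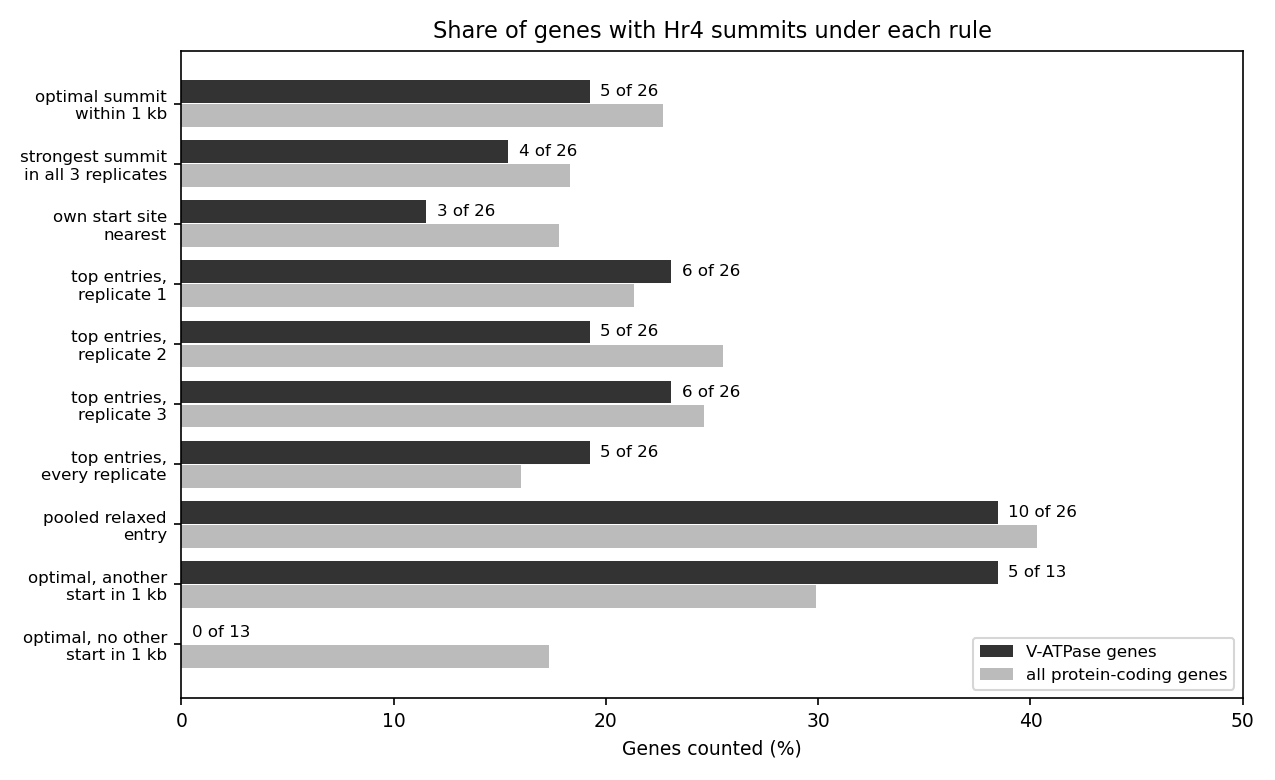
Share of genes counted under each rule (x axis, %), for the V-ATPase genes (dark bars, with counts) and all protein-coding genes (grey bars). The largest gap is at genes with no other protein-coding start site within 1 kb, where 0 of 13 V-ATPase genes were counted and 17.3% of all genes of that kind. That split was chosen after the values had been seen, and the gap was not tested.

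The strongest of these sites lay where Vha100-2 and Vti1b overlap. Vha100-2 (FBgn0028670, dm6 3R:18390323-18399169, minus strand) encodes one of the 5 a subunits, which form the path of protons through the membrane. Its strongest summit, at position 18397220 in a peak of 462 bp, had a signal value of 1654 and rank 54 of the reproducible list. In the replicate lists the matching entry ranked 64 in replicate 1, 56 in replicate 2 and 46 in replicate 3, a percentile of 99.8 ± 0.0301 (mean ± SD, n = 3). All 3 replicates placed it near the top, and their summits spanned 32 bp.

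This summit lay 292 bp upstream of the inner of the gene's start sites, inside an intron of Vha100-2, and at the same time in the 5′ UTR of Vti1b. The start site of Vti1b, which encodes a SNARE protein of membrane fusion, was nearer, at 225 bp. The start sites of Vha100-2 are 2241 bp apart, and the second summit, at position 18399377, lay 208 bp upstream of the outer one in an intron of Vti1b. It had a signal value of 160.6 and rank 4814, and its replicate percentiles were 73.8, 82.5 and 84.3 in replicates 1 to 3 (80.2 ± 5.63, n = 3). Replicate 1 was the lowest there, and its summit lay 195 bp away, where those of replicates 2 and 3 lay within 7 bp. This second summit is the one in the Vha100-2 sequence shown above. Its nearest start site is that of Vha100-2, which is why Vha100-2 also counts as a gene nearest to a summit.

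Vha68-1 (FBgn0265262, 2L:13000770-13004107, minus strand) encodes subunit A, which binds and hydrolyses ATP. Its summit, at position 13004224, was intergenic and lay 117 bp upstream of its only start site, in a narrow peak of 215 bp. The signal value was 412.2, rank 1328. Replicate percentiles were 97.0, 92.9 and 95.3 (95.1 ± 2.05, n = 3), with summits in a span of 14 bp. The gene is divergent from mTor, the TOR kinase gene, whose start site was 256 bp from the summit and 373 bp from that of Vha68-1. The summit was thus nearer to Vha68-1, but lay between both genes.

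Vha14-1 (FBgn0262512, 2R:15679426-15680084, minus strand) encodes subunit F of the central stalk. A summit at position 15679202 had a signal value of 786.5 and rank 397, the second highest of the family. Replicate percentiles were 99.1, 98.4 and 98.3 (98.6 ± 0.470, n = 3), so each replicate ranked it high. Its position set it apart from the other strongest summits. It lay 882 bp downstream of the start site, past the 3′ end of this short gene, in intergenic sequence 246 bp from the start site of Gmppa, a gene of GDP-mannose synthesis. Vha14-1 was the member just inside the 1 kb limit, and the first outside was Vha36-3 at 1769 bp.

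Vha16-5 (FBgn0032294, 2L:10736319-10737043, minus strand) encodes a c subunit, a proteolipid of the membrane rotor. Its stronger summit, at position 10737324, lay 281 bp upstream and 21 bp from the start site of CG12299. It had a signal value of 330.5 and rank 1907. Replicate 2 placed it at percentile 90.0 and replicate 3 at 91.5 (90.8 ± 1.02, n = 2), whereas the nearest entry of replicate 1 was 1026 bp away. It was the only strongest summit of a bound member that lacked an entry in a replicate. A weaker summit, at position 10736169, with signal value 100.6 and rank 7715, lay 874 bp downstream of the start site and 98 bp from that of Nup107, a nucleoporin gene. This one had entries in all replicates, at percentiles 77.5, 77.6 and 68.0 (74.4 ± 5.49, n = 3). Both summits of Vha16-5 were nearer to a neighbour's start site than to its own.

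Vha13 (FBgn0283536, 3R:19643018-19644386, minus strand) encodes subunit G of the peripheral stalk. The intergenic summit at position 19644508 lay 122 bp upstream of its start site and 518 bp from that of Nup58, another nucleoporin gene. It was the weakest of the strongest summits, with signal value 93.7 and rank 8204 of 8693. Replicate percentiles were 79.6, 53.9 and 70.5 (68.0 ± 13.0, n = 3), the widest spread among the counted summits. In replicates 2 and 3 its entry fell below that list's 8693 highest. Another reproducible summit, of rank 1200, lay 2546 bp downstream in an intron of subdued and was outside the limit.

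**Figure D2:**
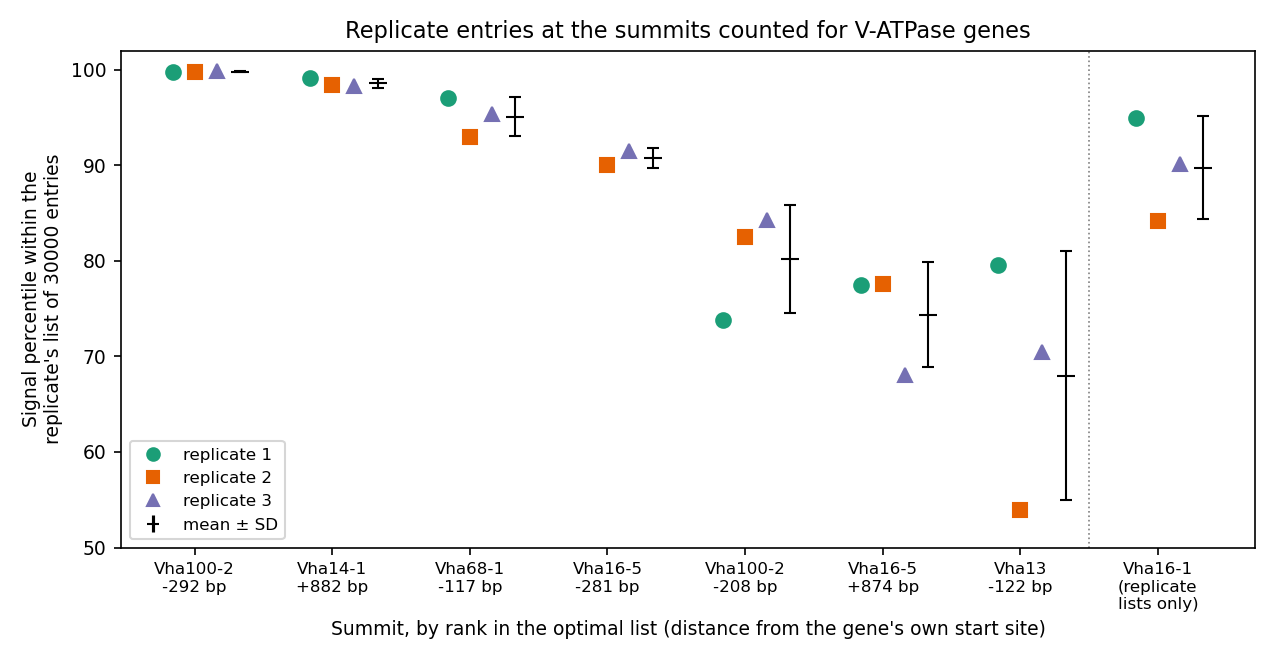
Percentile of the matching entry in each replicate's list of 30000 (y axis) for the 7 counted summits, in order of rank in the reproducible list, and for Vha16-1, which has replicate entries only. Symbols are replicates and the bar is mean ± SD; the spread is smallest at the Vha100-2 summit of rank 54 (SD 0.0301) and largest at Vha13 (SD 13.0), and replicate 1 has no point at the Vha16-5 summit 281 bp upstream.

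Replicate support was counted for each gene's strongest summit. It was matched within 250 bp in all 3 replicates for 4 of 26 V-ATPase genes (15.4%), all bound members but Vha16-5, and for 18.3% of all protein-coding genes. The 8693 highest entries of each replicate were also used alone. They lay within 1 kb of 6 members (23.1%) in replicate 1 against 21.3% of all genes, of 5 members (19.2%) in replicate 2 against 25.5%, and of 6 members (23.1%) in replicate 3 against 24.6%. Vha13 was counted only in replicate 1 and Vha68-2 only in replicate 3. In every replicate, 5 members (19.2%) were counted, against 16.0% of all genes (2232 genes). These 5 were Vha100-2, Vha14-1, Vha16-5, Vha68-1 and Vha16-1, and the last of them is not bound by the reproducible list. This count does not require the same site in each replicate. For Vha16-5, replicate 1 counted through an entry 745 bp downstream (rank 6751) and replicate 3 through one 302 bp upstream (rank 2554). With the strongest summit itself matched among each replicate's highest entries, 3 members were counted, against 15.3% of all genes. They were Vha100-2, Vha14-1 and Vha68-1.

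Vha16-1 (FBgn0262736, 2R:6625242-6633090, minus strand) encodes another c subunit and has start sites 706 bp apart. Each replicate had an entry just upstream of the outer one, at positions 6633259, 6633287 and 6633256 in replicates 1 to 3, which is 169, 197 and 166 bp upstream and a span of 31 bp. These entries were intergenic and ranked 1513 in replicate 1, 4739 in replicate 2 and 2951 in replicate 3. Their percentiles of 95.0, 84.2 and 90.2 averaged 89.8 ± 5.39 (n = 3), above the 68.0 ± 13.0 of Vha13, and the ranges of these genes did not overlap. Signal values were 114.7, 64.5 and 83.7, which cannot be compared between lists.

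The pooled list held no entry at that place. Its nearest one was 996 to 1027 bp from the replicate summits, and its entries within 1 kb of a Vha16-1 start site ranked 16546, at 124 bp downstream, and 24067, at 895 bp downstream. The nearest reproducible summit lay in an intron of Vha16-1, 1937 bp from a start site, with signal value 190.1 and rank 3974. Among the 2232 genes with high entries in every replicate, 42 (1.88%) had no reproducible summit within 1 kb, and Vha16-1 was the 1 member among them. Why the pooled list lacks the site was not tested.

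**Figure D3:**
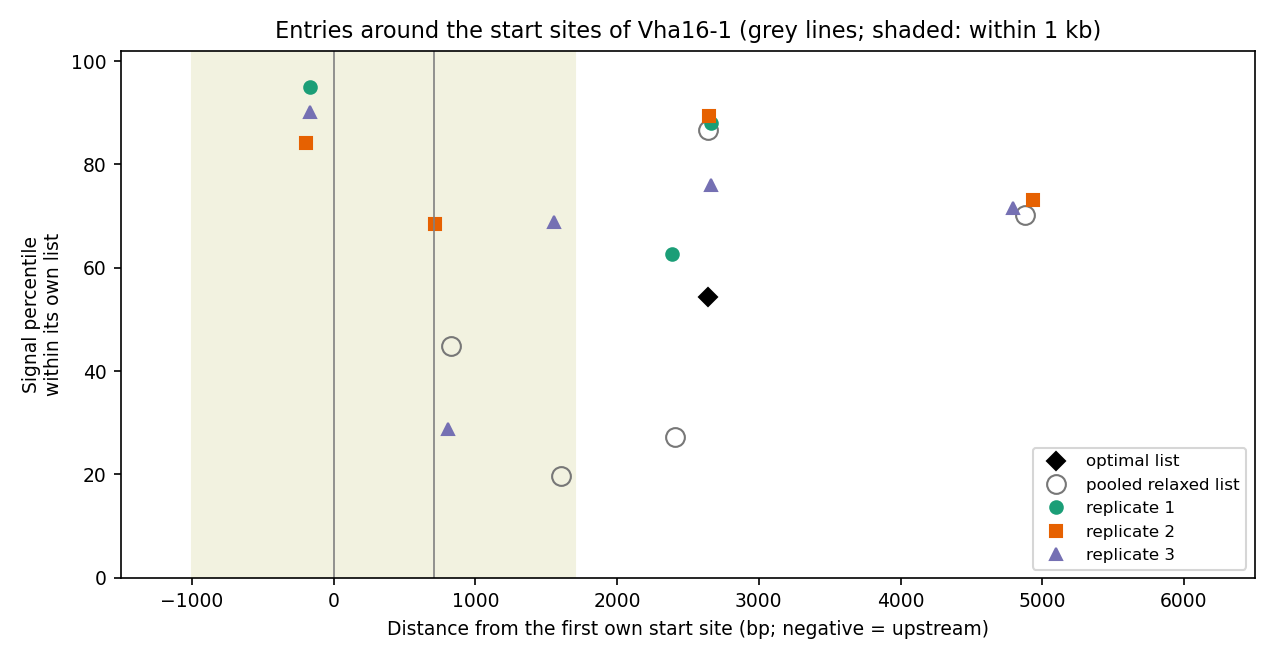
Entries around Vha16-1 by distance from its first start site (x axis, bp, negative upstream) and percentile within their own list (y axis, 100 highest). Grey lines mark the start sites and shading the 1 kb around them; the 3 replicate entries cluster 166 to 197 bp upstream at percentiles 84.2 to 95.0, with no pooled or reproducible entry beside them.

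The other unbound members are described by their distance to Hr4 summits. The nearest reproducible summit to the 21 unbound members, Vha16-1 included, lay at a median of 10038 bp and a range of 1769 to 68914 bp. Over all 26 V-ATPase genes the median distance was 8944 bp, and over all protein-coding genes it was 6176 bp. In 4 members the summit was between 1 and 3 kb away, a count given without its share over all genes. Within 5000 bp of a start site, 10 of 26 members and 44.9% of all protein-coding genes had a reproducible summit. For Vha36-3 (subunit D) it was 1769 bp away in an intron of AANATL7, at rank 4128, and for Vha16-1 it was the intronic one above. For Vha44, the only gene of subunit C, a summit of rank 1353 with signal value 405.9 lay 2110 bp upstream in an intron of Hmgs, the HMG-CoA synthase gene. For VhaAC45RP, a relative of the accessory subunit AC45, a summit of rank 969 with signal value 497.2 lay 2153 bp downstream.

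At the next distances were Vha100-3 at 4658 bp, VhaAC39-1 at 5772 bp, Vha100-4 at 7415 bp, Vha16-2 at 8326 bp, Vha26 at 9562 bp and Vha16-3 at 9898 bp. The other 11 members were over 10 kb from a reproducible summit, a count given without its share over all genes. They included Vha55, the single gene of subunit B, at 26258 bp, and Vha68-2, the closest relative of Vha68-1, at 28822 bp. Vha36-1 was at 29855 bp, and Vha100-1, an a subunit known for its role at synapses, at 26579 bp. Vha100-5 was the farthest of all. The rest were Vha14-2 at 10038 bp, VhaAC39-2 at 10115 bp, Vha36-2 at 14788 bp, VhaAC45 at 16514 bp, Vha16-4 at 25315 bp and Vha68-3 at 25438 bp.

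**Figure D4:**
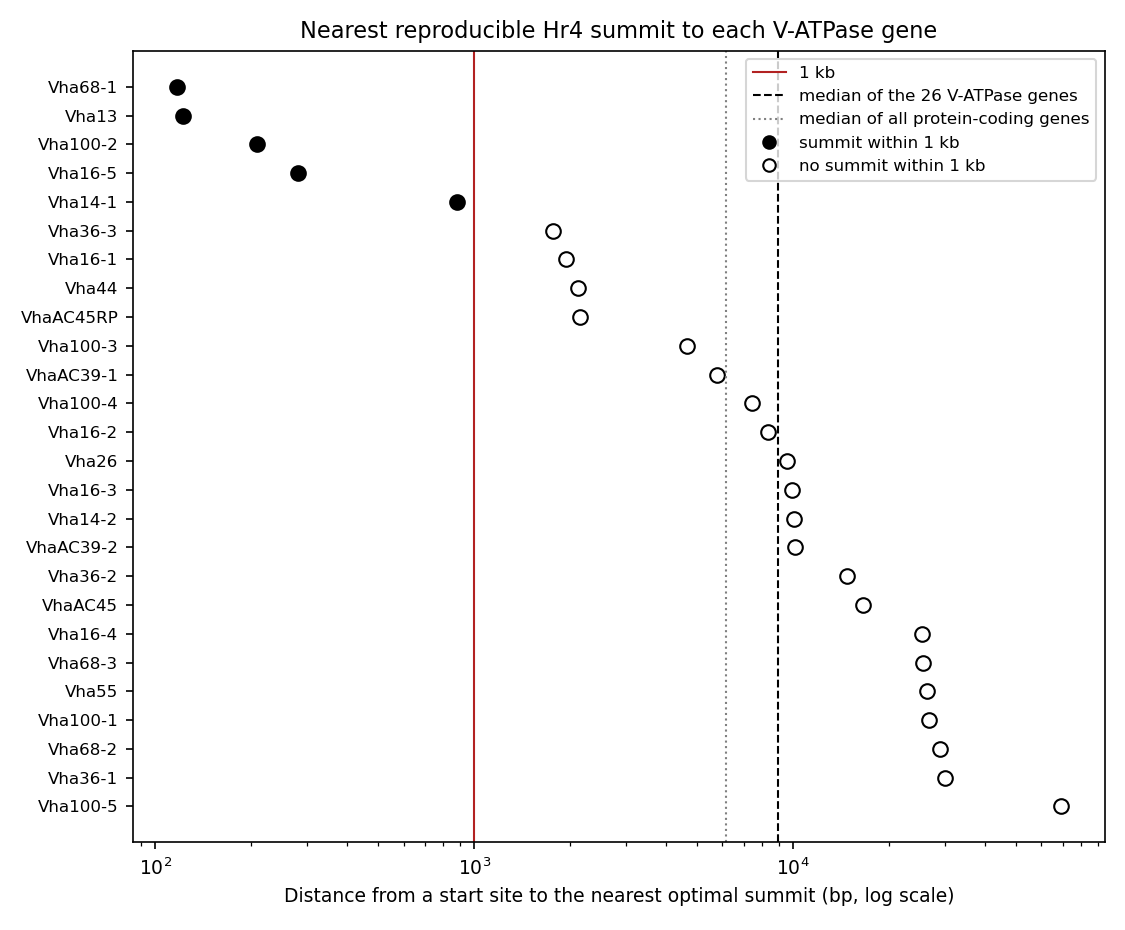
Distance from a start site to the nearest reproducible summit (x axis, bp, log scale) for each of the 26 V-ATPase genes, filled where it is within 1 kb (red line). The dashed line is the median of V-ATPase genes (8944 bp) and the dotted line that of all protein-coding genes (6176 bp). Beyond 10 kb lie 11 members, a count given without its share over all genes.

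Relaxed lists added weak entries at some of these genes. An entry of the pooled relaxed list lay within 1 kb of 10 V-ATPase genes (38.5%) and of 40.3% of all protein-coding genes. The 5 unbound members among them were Vha68-2, with a best rank of 10957, Vha44 (11953), Vha16-1 (16546), Vha68-3 (22909) and Vha14-2 (26191). All these ranks are past the 8693 of the reproducible list, which is built in. Reproducible summits near members had the same signal value and rank in the pooled list, as at Vha100-2 (54) and Vha13 (8204). The pooled count therefore includes the bound members and is no separate check. Besides Vha16-1, only Vha44 and Vha68-2 of the unbound members had an entry in all 3 replicate lists. The best entries near Vha44 ranked 15951, 19232 and 9287 in replicates 1 to 3. They lay at different places, 809 bp upstream, 838 bp downstream and 58 bp upstream of the nearest own start site. Near Vha68-2 the best entries ranked 20242, 11971 and 7688. Vha55 had entries in replicates 2 and 3 only, at ranks 14257 and 13436. No entry of any list lay within 1 kb of 11 members, which were Vha100-1, Vha100-3, Vha100-4, Vha100-5, Vha16-2, Vha16-4, Vha26, Vha36-1, Vha36-2, VhaAC45 and VhaAC45RP. For the members with no entry, and for those with an entry in all 3 replicate lists, the share over all genes is not given. These counts therefore describe the members only.

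**Figure D5:**
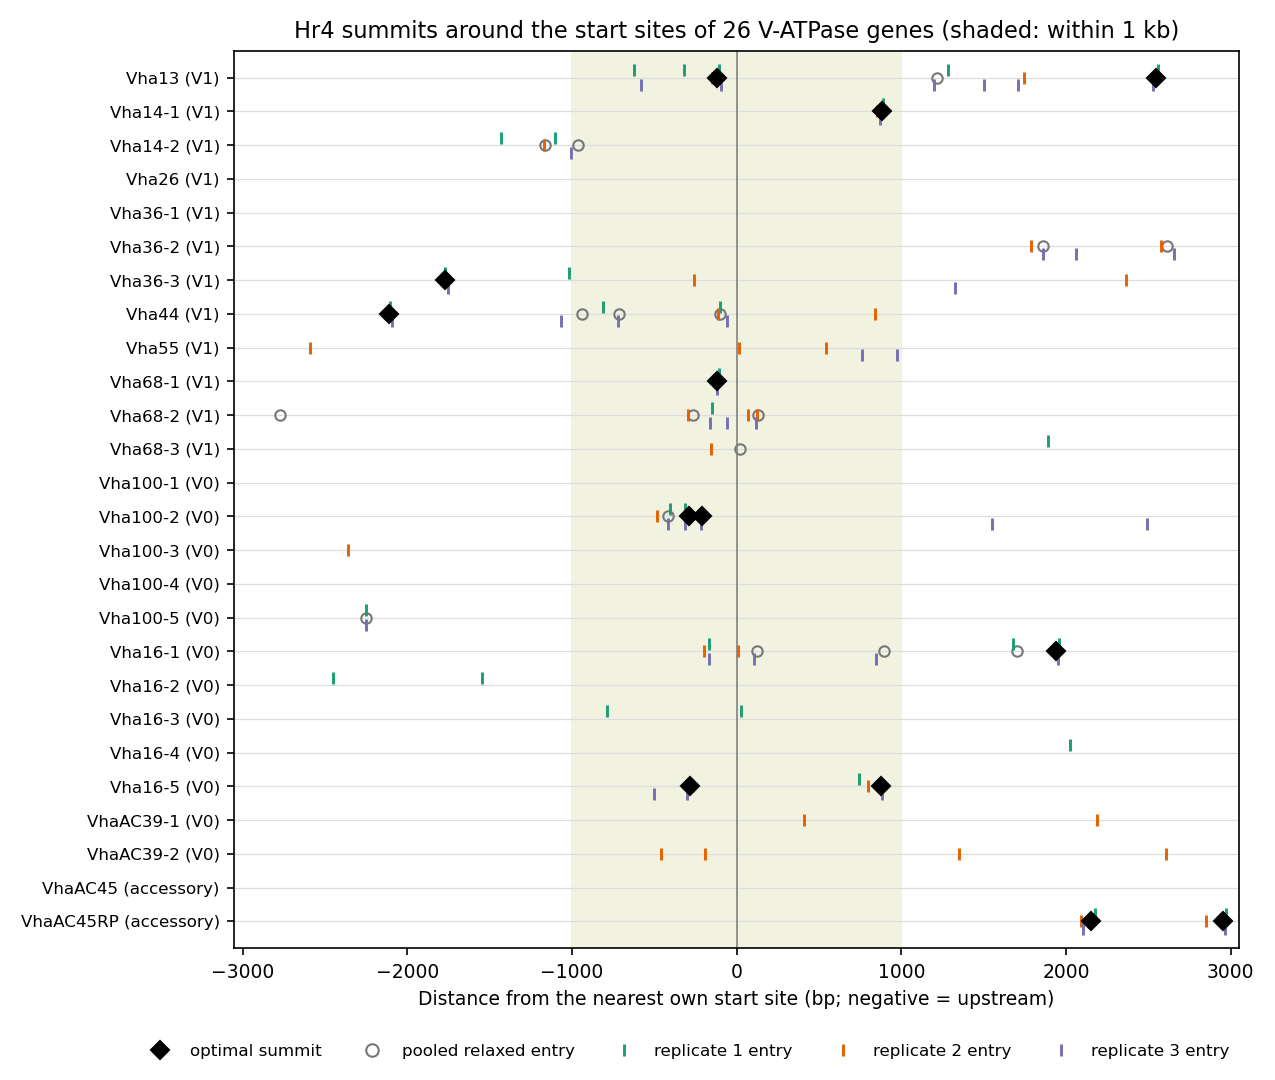
Summits within 3 kb of the nearest own start site (x axis, bp, negative upstream) for the 26 V-ATPase genes, V1 at the top and accessory genes at the bottom. Diamonds are reproducible summits, circles pooled relaxed entries and ticks the 3 replicates; the shaded band is the 1 kb limit, with 7 diamonds inside it at 5 genes.

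Among the members, bound and unbound copies occurred side by side in 4 subunit families. No share for other families of gene copies is given, so this describes the members only. Likeness of the proteins is given as identical residues as a percent of the shorter protein. Vha68-1 and Vha68-2 encode proteins of 614 residues each that are 91.9% identical, and Vha68-1 was bound while Vha68-2 had no reproducible summit within 1 kb. Vha68-3, 178 bp from Vha68-2, shares 72.0% with Vha68-1 and was also not bound. For both, the nearest reproducible summit was the one at Vha68-1. Vha14-1 and Vha14-2 share 38.7%, and Vha14-1 alone was bound. Vha100-2 shares 67.4% with Vha100-5, 65.7% with Vha100-4, 60.0% with Vha100-1 and 38.4% with Vha100-3, none of which was bound, although Vha100-4 begins 517 bp from the end of Vha100-2 and has the summit of rank 54 as its nearest. Vha16-5 shares 69.0% with Vha16-3, 67.9% with Vha16-1, 59.5% with Vha16-2 and 54.2% with Vha16-4. Vha16-1 and Vha16-3, which share 82.9%, had no reproducible summit within 1 kb, and neither did Vha36-1 and Vha36-3, which share 85.0%.

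The bound sites were compared with those of all bound protein-coding genes by their medians. The strongest summit of the bound V-ATPase genes had a median percentile of 84.7 in the reproducible list and a median signal value of 412.2. Over all bound genes these medians were 66.8 and 249.0. With 5 genes ranging from rank 54 to rank 8204, the members covered nearly the whole list. The strongest summits of Vha100-2, Vha14-1 and Vha16-5 lay nearer to a neighbour's start site. Only those of Vha68-1 (percentile 84.7) and Vha13 (5.63) were nearest to their own gene's. The strongest summit was upstream of the start site in 4 of 5 bound members and in 79.6% of all bound genes (2517 of 3164). Peak width had a median of 410 bp in members and 424 bp in all bound genes, and median gene length was 2217 bp in V-ATPase genes and 2166 bp in all genes.

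Each of the 7 counted summits lay within 518 bp of the start site of another protein-coding gene. That distance is the largest among these same 7 summits, and the share over all summits near start sites is not given. This count therefore describes the members only. The V-ATPase gene's own start site was the nearest to a summit for 3 of 26 members (11.5%), namely Vha100-2, Vha13 and Vha68-1, and for 17.8% of all protein-coding genes. As a share of bound genes this was 3 of 5 members and 78.5% of all bound genes. Vha100-2 was counted there through its weaker summit. Another protein-coding start site lay within 1 kb in 13 of the 26 V-ATPase genes and in 42.9% of all genes. Of those 13 members, 5 were bound (38.5%), and 29.9% of all genes with such a neighbour were bound. Of the 13 members without one, 0 were bound, and 17.3% of all genes without one were. This split was chosen after the values had been seen, and to which gene of a pair a summit belongs was not tested.

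Sequence around the summits was examined within 50 bp to each side. The median GC content at the strongest summits of bound members was 35.6%, against 31.7% at the 3231 reproducible summits within 1 kb of protein-coding start sites and 30.7% at all reproducible summits. Vha16-5 was the highest of the members at 55.4%, a level reached by 53 of the 3231 summits (1.64%), and Vha14-1 and Vha68-1 were the lowest at 29.7%. The Mitf E-box CACGTG was found at 0 of the 5 strongest summits and at 0.681% of summits near start sites. The nuclear receptor half-site AGGTCA was found at 0 of 5 and at 1.80%. The GATA site GATAAG was found at Vha14-1 (5.17% of summits near start sites) and the GAGA site GAGAG at Vha100-2 (8.82%). The extended half-site TCAAGGTCA (0%), the DRE TATCGATA (1.27%), the E-box CAGCTG (2.82%), the variant CATGTG (3.50%) and the core of Motif 1, GGTCACAC (0.402%), were found at none of the 5.

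Promoters, taken as 250 bp before to 50 bp after the first start site, were searched for the same letters. CACGTG was in 2 of 26 V-ATPase promoters (7.69%), those of Vha44 and VhaAC45RP, and in 4.20% of all protein-coding promoters. CATGTG was in 4 members (15.4%), including the promoter of Vha100-2 where the second summit lies, and in 1352 of the 13945 promoters. GGTCACAC was in 4 members (15.4%), Vha100-1, Vha14-1, Vha26 and Vha68-2, and in 7.70% of all. CAGCTG was in 6 members (23.1%) and 17.7% of all. For AGGTCA the shares were 7.69% and 5.88%, for GAGAG 30.8% and 29.7%, for GATAAG 15.4% and 18.9%, and for TATCGATA 3.85%, the single promoter of Vha55, and 9.36%. TCAAGGTCA was in no V-ATPase promoter and in 0.122% of all. With 26 promoters, each share moves by several percent with 1 gene.

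Other genes of the pump and its surroundings were counted by the same rule. Of 8 subunit genes outside the symbol rule, 2 were bound, both of them copies of the small V0 subunit e. VhaM9.7-a had a summit 72 bp upstream with signal value 98.6, rank 7849 and replicate percentiles of 63.1, 76.2 and 75.3. VhaM9.7-b had one 325 bp upstream with signal value 214.0 and rank 3447, at 83.0 in both replicates 2 and 3, with no entry in replicate 1 and the start site of COX8, a gene of the respiratory chain, 90 bp away. VhaSFD (subunit H), VhaPPA1-1 and VhaPPA1-2 (c″), ATP6AP2, VhaM9.7-c and VhaM9.7-d were not bound. Together, 7 of 34 subunit genes were bound (20.6%), near the 22.7% of all protein-coding genes.

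Among 16 regulators and partners, 3 were bound (18.8%), against 22.7% of all protein-coding genes. Nhe3, a sodium/proton exchanger gene, had a summit 144 bp upstream with signal value 357.1, rank 1694 and replicate percentiles of 95.6, 91.3 and 95.0, and no other start site within 1 kb. Rbcn-3B, which encodes a protein of V-ATPase assembly and lies on X, had one 999 bp upstream, just inside the limit, 58 bp from the start site of Edem1. CtsL1, a lysosomal cathepsin gene, had one 197 bp upstream, 74 bp from the start site of Rpn13. The summits of Rbcn-3B (91.6 and 90.0) and CtsL1 (86.0 and 86.5) had percentiles in replicates 2 and 3 and no entry within 250 bp in replicate 1. Mitf itself was not bound, with its nearest reproducible summit 11838 bp away, and neither were RagA-B and RagC-D, the GTPases that link the lysosome to TOR.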

How the data were processed

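ChIP-seq of GFP-tagged Hr4 was analysed in 3 biological replicates of whole white prepupae, with groups and replicate numbers from the labels. As the deposited text files record, relaxed lists were derived from each replicate's alignments and a control, and from all replicates together, and the reproducible list came from IDR analysis of these 4 lists. The unit used is the authors' deposited signal value per peak, compared only within 1 list. The aligner, the caller, their versions and the threshold of IDR were not given in the sources used here. The control was not analysed here. The lists carry no read counts, so no interval needing depth was computed. The dm3 lists (5) were not used, since builds were not converted.

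Summits were placed on Ensembl release 115 protein-coding genes in dm6 with Python 3.11.15. A replicate matched within 250 bp. Proteins were translated from the annotated coding sequence and aligned with Biopython 1.88 (BLOSUM62, gap penalties 11 and 1). The code that counts bound genes was checked on simulated summits placed at known genes, which is no test of the count against chance. Every member was named, as were bound genes of both other lists and neighbours nearer to a summit. Sequences are shown for the bound members not on arm 2R, which are all but Vha14-1, at the summit with the highest signal that lies outside a UTR. Members and lists were chosen with earlier results of these data known.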

Additional observations from a re-analysis of the deposited data

How the results depend on the processing

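Of 34 alternative settings for the main counts and medians, 10 moved the value and 24 did not. A count was taken as moved when it differed by over 1.5 times, whatever the number of genes searched. A median moved when it differed by over 1 SD of the 3 replicate medians on the relaxed lists (2.58 for the percentile). For the percentile that scale differs from the reproducible list, so this SD is not the spread of the value judged. The tally is therefore a description and not a measure of robustness. The 5 bound members became 3 within 250 bp (13.4% of all genes) and 10 within 5000 bp (44.9%). With the pooled relaxed list, which also holds the reproducible summits near members, they became 10 (40.3%). They became 3 where the own start site had to be nearest (17.8%) and 0 among members without another start site within 1 kb (17.3% of all such genes). The count stayed at 5 with the gene's 5′ end only (20.4% of all genes) or any base of the peak (24.0%). It was 4 at 500 bp (18.7% of all genes), 7 at 2000 bp (29.3%) and 4 among peaks above the median signal (14.9%). Vha14-1 was lost at 250 and 500 bp, Vha16-5 at 250 bp, and Vha13 among peaks above the median signal and in the highest entries of replicates 2 and 3. The median percentile of 84.7 was 81.4 at 500 bp and 78.1 at 2000 bp, and on the relaxed lists 98.1 (4 members), 92.9 and 95.3 for replicates 1 to 3. Those lists also hold background entries, so a higher percentile there is built in and shows no change. Leaving out each replicate in turn gave 5 to 5 members for entries high in every replicate (17.3 to 21.1% of all genes). For support in every replicate it gave 4 to 5 (18.6 to 22.1%), the 5 without replicate 1. High entries in every replicate and the split by neighbours were settings added after seeing the data. No paired analysis was possible because all replicates belong to 1 group. The counts rest on 26 genes and 1 line, depth is unknown, and no control library was analysed here.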

Other observations

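The site at Vha16-1 was 1 of 40 of its kind. Of 6019 entries among the 8693 highest of replicate 3 that had such an entry of both other replicates within 250 bp, 40 (0.665%) had no entry of the pooled list within 250 bp. Their ranks in replicate 3 ran from 506 to 7471, and Vha16-1, at 2951, was in place 14. By arm there were 6 on 2L, 5 on 2R, 8 on 3L, 21 on 3R, 0 on 4 and 0 on X, and 27 lay within 1 kb of a protein-coding start site. The median distance to the nearest pooled entry was 2476 bp.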
